A study of Mus musculus with 48 samples.

Results

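XO mouse embryonic stem cells were followed through their first 18 h in a medium that takes them towards epiblast stem cells. The comparison sets the XO arrays taken at 6, 12 and 18 h, as 3 neighbouring times, against the XO arrays taken at 0 h. It uses 5 of the 48 arrays of the series, 3 early ones and 2 at 0 h, chosen by line and time alone. Arrays of other lines entered the test for its spread only. Expression was read on Affymetrix Mouse Exon 1.0 ST arrays, 1 array a time, and the values are log2 expression values for 22745 Ensembl gene identifiers.

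The early XO cells (Pgk12.1, sex chromosomes XO) had been seeded on Fibronectin in N2B27 medium with Activin A and Fgf-basic. The XO cells at 0 h were Pgk12.1 cells of the same complement in N2B27 medium with the Gsk3 inhibitor CT-99021, the Mek1 inhibitor PD-0325901 and LIF, to which all lines had been adapted. XX cells of the same name (6, 12 and 18 h against 0 h) and XY cells of the line E14 (8 and 16 h against 0 h) went through the same change of medium and serve below as other lines. The loss of both inhibitors and of LIF, the gain of Activin A and Fgf-basic, and the move to Fibronectin came at the same time in every line, so their parts in any change cannot be told apart. XO cells are represented by 1 line. The arrays at 0 h carry the replicate letters A and B and the early arrays all carry B. Whether A and B come from separate cultures is not stated in the labels. The p-values therefore cover the scatter of the arrays at hand, which may be partly technical.

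As background, inhibiting Mek keeps Erk signalling low, and inhibiting Gsk3 stabilises beta-catenin. LIF acts through its receptor on Stat3. Under these conditions mouse embryonic stem cells stay in a naive state like that of the early epiblast. When they are released into Fgf and Activin, Erk is activated and the naive programme is dismantled while genes of the later epiblast come on. None of the 22745 identifiers could be paired with a gene symbol from the tables at hand (0 matched), so no known gene of these pathways is described, the labelled cell type was not checked against its markers, and no promoter sequence is printed.

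Array medians were 6.94, 6.88 and 6.95 log2 units at 6, 12 and 18 h, against 6.84 and 6.91 at 0 h (A and B). Interquartile ranges were 3.10, 2.89 and 3.02 log2 units at 6, 12 and 18 h, against 3.03 and 2.99 at 0 h, so the 12 h array was the narrowest of the 5. Arrays A and B at 0 h had a correlation of 0.988 taken over genes, which do not count as replicates. The number of arrays limits the precision of every value.

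By 6 to 18 h, some genes differed from 0 h in XO cells past the threshold of the test. An unadjusted p under 0.05 was reached by 3609 genes (limma), so the number called is no measure of how many changed. Of 22745 genes, 312 were higher and 202 lower (limma, two-sided, adjusted p under 0.05), which is 514 genes or 2.26% of those tested, 1.37% higher and 0.888% lower. A difference of at least 1 log2 unit, or 2-fold, was reached by 188 of the higher and 136 of the lower genes. By at least 2 log2 units, 50 were higher and 24 lower, and by at least 3, 8 were higher and 1 lower. The median difference was 1.13 among the higher genes (interquartile range 0.87 to 1.65) and -1.19 among the lower genes (interquartile range -1.49 to -0.93), against 0.057 over all genes. The median standard error of the higher genes was 0.21 and that of the lower genes 0.22. The spread behind these tests came from 14 arrays, XX and XY arrays among them. With the 5 XO arrays alone, 353 genes were called, of which 273 were among the 514.

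All 3 early arrays lay above both 0 h arrays for each of the 312 higher genes, and below both for each of the 202 lower genes. Over all genes the same held for 22.1% above and 13.5% below, so arrays that do not overlap were common here and many such genes did not pass. The calls came from these same arrays, so the lack of overlap is a description of the called genes. The excess of higher genes rested on the scaling of the arrays. After each array was centred on its median, 268 genes were higher and 276 lower, and after quantile normalization 296 and 320. The count also fell when single arrays were left out, which lowers the precision of each difference too. It was 65 without the 0 h array A, 41 without the 0 h array B and 176 without the 18 h array. Of the 65 and 41 genes, 65 and 40 were among the 514. Since these are whole cultures, fewer cells that express a gene and less RNA per cell cannot be told apart.

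Among called genes, the largest rise belonged to ENSMUSG00000000730. Its values were 10.24, 11.12 and 11.89 log2 units at 6, 12 and 18 h, against 6.26 and 5.89 in the 0 h arrays A and B. The early arrays did not overlap the 0 h arrays, as the rule for naming an identifier required. The level still climbed between 6 and 18 h. The mean was 11.08 ± 0.83 early (SD, n = 3) and 6.07 ± 0.26 at 0 h (SD, n = 2), a difference of 5.01 (SE 0.43, limma adjusted p = 2.73e-04), or 32.2-fold. The step from 6 to 18 h was 1.65 (SE 0.38) and did not pass (limma adjusted p = 0.184). Its highest XO value, 12.33, was that of the 24 h array, and its lowest after 18 h was 8.45.

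The other lines started from higher levels of the same gene. In XX cells it stood at 11.36, 11.78 and 12.10 at 6, 12 and 18 h, against 8.27 and 8.02 at 0 h. In XY cells it stood at 11.46 and 12.20 at 8 and 16 h, against 7.07 and 7.98 at 0 h. The XO change exceeded the XX change by 1.40 (SE 0.60), which did not pass (limma adjusted p = 0.680).

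The next rise among called genes was that of ENSMUSG00000022346, with 8.66, 9.15 and 9.60 at 6, 12 and 18 h, against 5.23 and 3.85 at 0 h. The early arrays lay close together and well above both 0 h arrays, which differed from each other more than the early ones did. The mean was 9.14 ± 0.47 early (SD, n = 3) and 4.54 ± 0.97 at 0 h (SD, n = 2), a difference of 4.60 (SE 0.57, limma adjusted p = 0.00263). Without the 0 h array B, the lower of the pair, it was 3.91 and missed the threshold (limma adjusted p = 0.0553). All 14 later XO arrays stayed between 8.18 and 9.97. In XX cells the values were 8.28, 9.20 and 9.35, against 7.38 and 5.32 at 0 h, and in XY cells 10.06 and 9.91, against 5.04 and 5.84 at 0 h.

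ENSMUSG00000091302 had the largest fall among called genes. Its values were 4.25, 4.73 and 4.27 at 6, 12 and 18 h, against 7.88 in each of the 0 h arrays. It had reached its low level by 6 h, and the step from 6 to 18 h was 0.018 (SE 0.27). The mean was 4.42 ± 0.27 early (SD, n = 3), and the difference was -3.46 (SE 0.37, limma adjusted p = 0.00155). The same gene fell in the other lines, with a difference of -4.72 in XX (limma adjusted p = 1.87e-04) and -3.73 in XY (limma adjusted p = 6.12e-04), each against its own 0 h arrays. Levels near 4 lie far below the array medians and no background level was used here, so such differences can understate the true ones.

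The next fall among called genes was that of ENSMUSG00000087373, with 4.33, 4.33 and 3.97 at 6, 12 and 18 h, against 7.19 and 7.22 at 0 h. The difference was -2.99 (SE 0.35, limma adjusted p = 0.00229), and the low level was again reached by 6 h. Here the lines began at different levels. XX cells had 4.98, 4.24 and 3.92, against 5.78 and 6.68 at 0 h. The XX difference was -1.85 (limma adjusted p = 0.0122). The XO change minus the XX change was -1.14 (SE 0.50), which did not pass (limma adjusted p = 0.686). XY cells had 4.03 and 4.53 at 8 and 16 h, against 5.02 and 4.14 at 0 h, so the early and 0 h arrays overlapped in XY. The XY 0 h arrays already lay near the low level of the early XO arrays. Later XO values lay between 3.73 and 5.56, below both 0 h arrays.

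**Figure D1:**
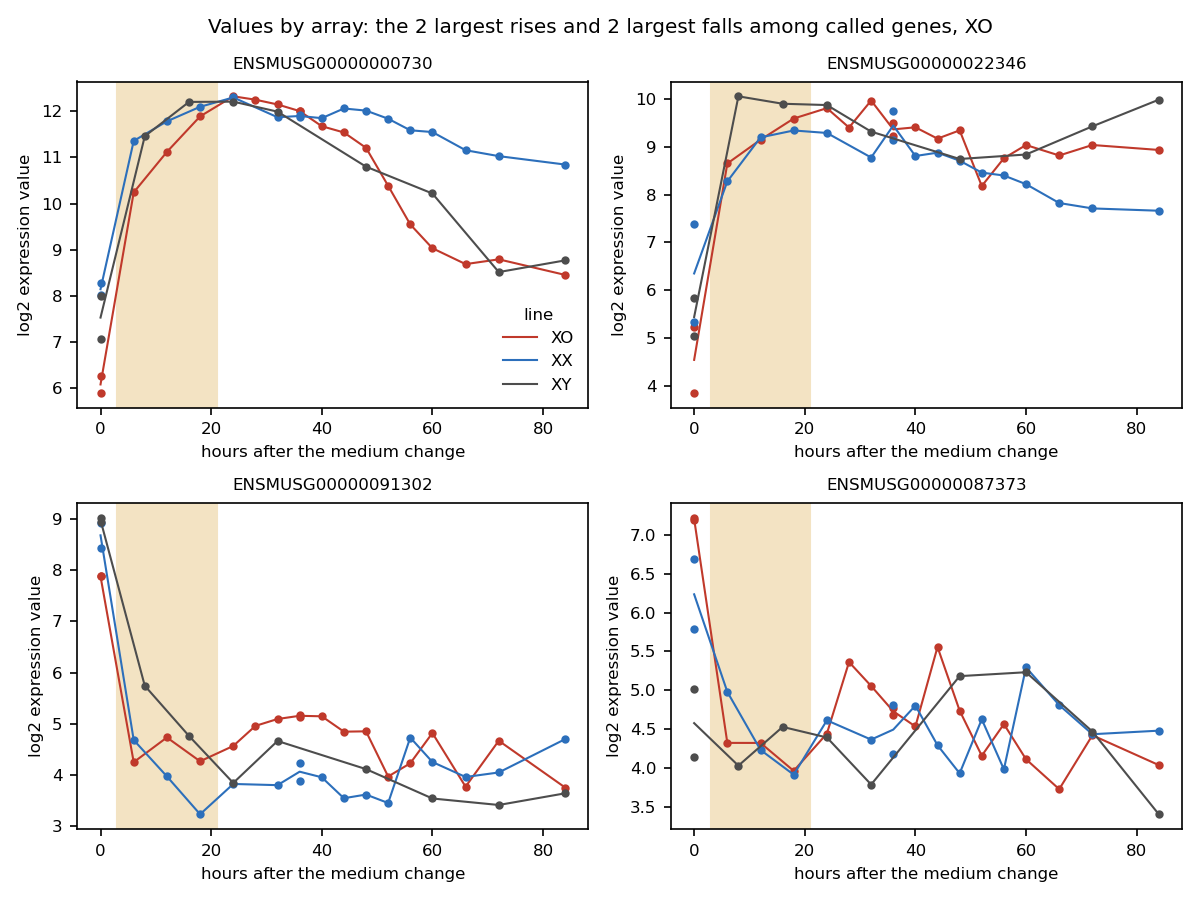
Log2 expression value (vertical axis) against hours after the medium change (horizontal axis) for 4 identifiers, the 2 largest rises and the 2 largest falls among genes called in XO. Points are arrays, lines join the mean per time, colours are the lines, and the band marks the window of the XO 6, 12 and 18 h arrays. In XO cells the upper identifiers stand at 10.24 and 8.66 by 6 h and the lower ones at 4.25 and 4.33.

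Among called genes with large early changes, most had made at least 50% of their largest change by 6 h. Of the 188 genes higher by at least 1 log2 unit, 174 had done so and kept at least that share at 18 h, and 14 had made less by 6 h. Of the 136 lower genes the counts were 125 and 11. No gene of either direction faded to under 50% of its largest change at 18 h, but a gene was called on the mean of the 3 times, with a spread that includes its change between them, which selects against fading and gradual genes alike. These classes come from the values that called the genes and are a description. Among the 188 higher genes the largest change fell on 6 h for 46, on 12 h for 17 and on 18 h for 125. Among the 136 lower genes it fell on 6 h for 31, on 12 h for 45 and on 18 h for 60.

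The 174 sustained risers had median levels of 6.44 and 6.41 in the 0 h arrays A and B, then 8.16, 8.12 and 8.47 at 6, 12 and 18 h. The arrays after 18 h were not used to choose them. Their median level was 8.58 at 24 h, 7.72 at 48 h, 7.10 at 60 h and 7.62 at 84 h. It was lower late in the course than at 6 h and remained above the 0 h medians. The 0 h and early arrays did choose the genes of each class, so part of its later distance from them can come from the choice. The 125 sustained fallers had medians of 8.45 and 8.69 at 0 h, then 7.24, 6.91 and 6.70 at 6, 12 and 18 h. They stood at 6.87 at 24 h, 6.78 at 48 h, 6.71 at 60 h and 7.05 at 84 h, and no later XO array had a median above 7.23 or below 6.34. The 14 gradual risers had medians of 6.01 and 5.84 at 0 h, then 7.20, 7.96 and 8.81 at 6, 12 and 18 h, and 8.86 at 24 h. Over all genes the array medians of XO cells stayed between 6.84 and 7.10 from 0 to 84 h.

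**Figure D2:**
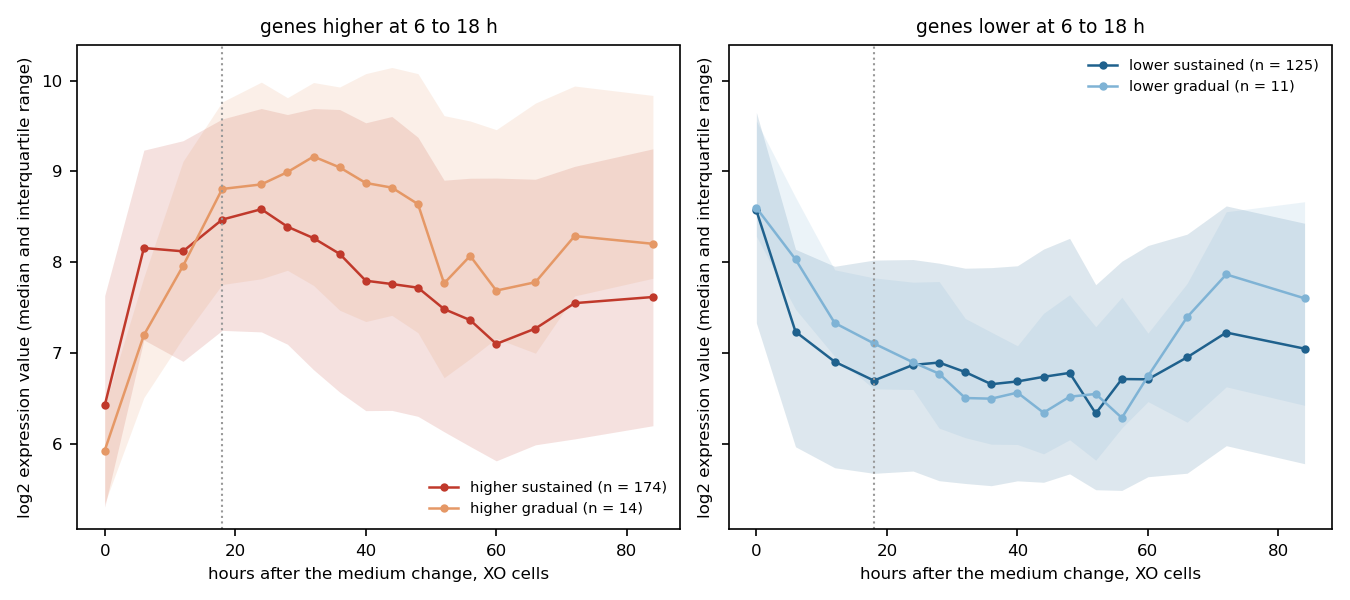
Median log2 expression value (points and lines) with the interquartile range over genes (bands) against hours in XO cells, for called genes with early differences of 1 log2 unit or more; arrays A and B are averaged at 0 and 36 h. The dotted line marks 18 h, the last time used to choose the genes, and sustained refers to the times up to it. The 174 sustained risers peak at 8.58 at 24 h and stand at 7.62 at 84 h, and the 125 sustained fallers lie between 6.34 and 7.23 after 18 h.

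Taken 1 array at a time, the departure from 0 h was larger at 18 h than at 6 h. At 6 h 154 genes were higher and 78 lower (limma, 232 genes, 1.02%), at 12 h 198 and 284 (482 genes, 2.12%), and at 18 h 537 and 320 (857 genes, 3.77%). These tests take their spread from the duplicated arrays, assume that a lone array varies like them, and share the 0 h arrays. The counts fell when either 0 h array was left out, which lowers the precision of each difference too. Without A or B they were 34 or 32 at 6 h, 156 or 118 at 12 h and 357 or 324 at 18 h, and with the spread of the 14 arrays 26, 36 and 198. With no test, 841, 933 and 1167 genes differed from the 0 h mean by at least 1 log2 unit at 6, 12 and 18 h, where 261 differed by as much between the 0 h arrays A and B. The 24 h array, outside the window, had 1897 such genes. The root mean square difference from the 0 h mean over genes was 0.45, 0.46 and 0.51 log2 units at 6, 12 and 18 h, 0.63 at 24 h and 0.85 at 84 h. For scale, the XX arrays at 0 h lay 0.53 and 0.52 from the XO 0 h mean.

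The balance of directions at 12 h depended on the fit. Higher genes made up 66.4% of those called at 6 h, 41.1% at 12 h and 62.7% at 18 h. The 12 h array also had the narrow interquartile range given above, and the part of that in the balance was not tested. After centring the shares were 57.0% at 6 h, 39.2% at 12 h and 53.7% at 18 h, and after quantile normalization 55.0%, 39.8% and 53.7%. The excess of lower genes at 12 h was absent without the 0 h array A (78 higher, 78 lower), without B (68 and 50) and with the spread of the 14 arrays (24 and 12). With the 12 h array left out, the 6 and 18 h arrays against 0 h gave 247 higher and 103 lower genes (70.6% higher).

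A direct comparison of the XO 18 h and 6 h arrays does not use the 0 h levels and sets 1 array against 1, with the spread borrowed from the duplicated conditions. It called 37 genes higher and 22 lower at 18 h (limma, 59 genes, 0.259%). With the spread of the 14 arrays at 0 h and the early times the count was 0, with 882 genes at an unadjusted p under 0.05, and with the 0 h array A or B left out, which lowers the degrees of freedom of the spread, it was 21 each time. The 59 genes are therefore given as a description of these 2 arrays. Differences ranged from 1.33 to 3.61 log2 units among the higher genes and from 1.38 to 3.40 in size among the lower.

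The same genes were read in the other lines, whose early values did not choose them. In XX cells, 36 of the 37 were also higher at 18 h than at 6 h and 20 of the 22 lower, with median XX differences of 1.32 and -1.69, against 0.016 over all genes. In XY cells, 36 and 19 moved the same way between 8 and 16 h, with medians of 1.00 and -0.67, against 0.0097 over all genes. In XO cells the 37 genes had median levels of 5.96 and 5.91 in the 0 h arrays A and B, and the 22 genes 8.02 and 7.80.

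For the 22 genes the 6 h array lay above both 0 h arrays in 11 (50.0%), where it did so for 45.6% of all genes, and below both in 9 (40.9%), against 31.5% of all genes. Of the 37 genes, 30 (81.1%) were above both at 6 h. A large 18 h minus 6 h gap chose these genes, so their 6 h levels are a description with no test.

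The genes that fell came mostly from higher levels of expression than those that rose. Genes were put in quartiles by their mean 0 h level in XX and XY cells, which is not part of the XO difference, although these arrays enter the spread of its test. Of the 202 lower genes, 101 lay in the highest quartile, 71 in the next, 21 in the one below and 9 in the lowest. Of the 312 higher genes, 73, 109, 77 and 53 lay in the same quartiles. In the highest quartile 1.78% of genes were called lower and 1.28% higher, and in the lowest 0.158% and 0.932%. Levels in the lowest quartile ran from 2.56 to 5.51 log2 units, where a fall has little room to show. The part of that in these counts was not tested.

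The early XO changes were also seen in the other lines, each read against its own 0 h arrays. Of the 312 genes higher in XO, 296 (94.9%) had a positive difference in XX and 305 (97.8%) in XY, where 49.1% and 53.3% of all genes did. Their median difference was 0.77 in XX (interquartile range 0.39 to 1.33) and 1.02 in XY (0.61 to 1.60). Of the 202 genes lower in XO, 197 (97.5%) had a negative difference in XX and 194 (96.0%) in XY, where 50.9% and 46.7% of all genes did. Their medians were -1.13 in XX (-1.65 to -0.70) and -0.81 in XY (-1.30 to -0.50).

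Many of these genes were called in the other lines as well. XX cells at 6 to 18 h called 327 genes higher and 769 lower (limma, 1.44% and 3.38% of genes), among them 142 of the 312 and 147 of the 202. XY cells at 8 and 16 h called 510 higher and 339 lower (2.24% and 1.49%), among them 177 of the 312 and 90 of the 202. In XX 1 of the 312 was called lower, and in XY likewise 1, and none of the 202 was called higher in either. The lines share 1 spread per gene in the fit, so part of the shared calls can come from that. The genes were chosen in XO, so a smaller change elsewhere can come from the choice alone. Chosen in XX instead, the 327 higher genes had a median of 0.87 in XO and 1.15 in XX, and the 769 lower genes -0.49 in XO and -0.998 in XX. Of these, 311 (95.1%) and 715 (93.0%) had the same sign in XO. Chosen in XY, the 510 higher genes had a median of 0.69 in XO and 1.19 in XY, with 476 (93.3%) of the same sign in XO. The 339 lower genes had medians of -0.54 in XO and -1.18 in XY, with 285 (84.1%) of the same sign.

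**Figure D3:**
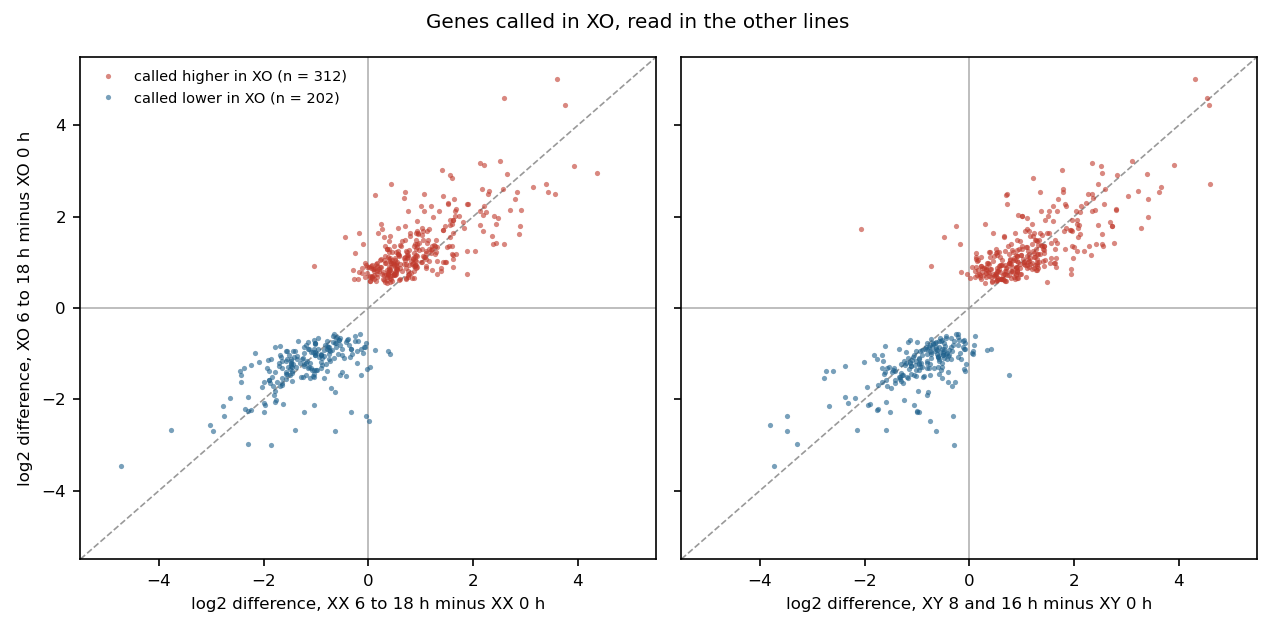
Log2 difference between XO 6 to 18 h and XO 0 h (vertical axes) against the log2 difference of the same gene in XX (left) and XY (right) over the early times, for the 312 genes called higher and the 202 called lower in XO. Each point is a gene and the dashed line marks equal differences. Nearly all points lie in the quadrants of equal sign, 296 and 197 of them in XX and 305 and 194 in XY.

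No gene passed the test of the difference between the XO and XX changes over 6 to 18 h (limma interaction, 0 of 22745, with 1628 genes at an unadjusted p under 0.05 and a smallest adjusted p of 0.0810). Over all genes the median XO change minus XX change was 0.092, and -0.0012 after centring. The median standard error of this difference was 0.29 per gene, against 0.21 for the XO change alone. A p that misses the threshold with an error of this size does not show that the lines changed alike, and the larger count in XX than in XO is not shown to be a difference in any single gene. Leaving out the XX 6 h array gave 4 calls, and leaving out XX 12 h or XX 0 h A gave 1 each.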

How the data were processed

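The deposited table holds log2 expression values. The submitters' processing notes name RMA and affy as the authors' tools, a method that corrects the background, makes arrays alike by quantiles and joins probes into 1 value per gene. Tool versions, the probe annotation and the genome build were not given in the sources used here. Columns were matched to samples by accession, and the array of commercial reference RNA was left out.

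All tests were two-sided moderated tests of limma 3.58.1 (lmFit, then eBayes) in R 4.3.3, with p-values adjusted by Benjamini-Hochberg over 22745 genes and a threshold of 0.05. The early change and the XO minus XX difference came from 1 fit of 14 arrays in 6 groups (0 h and early, per line), with 8 residual degrees of freedom. The spread of an early group includes its change with time. Single times came from a fit of 13 arrays, 10 of them duplicates, with 5 residual degrees of freedom. The fits were tested on simulated data with known changes and the scatter of the 14 arrays. Changes of 1 and 2 log2 units were recovered in 54% and 93% of cases for the early change. For the XO minus XX difference the shares were 28% and 80%. At 1 log2 unit the tests of 6 h, 18 h and 18 h against 6 h recovered fewer. Those tests take their spread from the duplicated arrays, whose own scatter was not simulated. Their recovery in the real data is therefore not known from this.

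The comparison, the gene lists and the tests were chosen with earlier results of these data known. The 25 gene lists could not be applied, because the gene table at hand (49997 genes) holds no Ensembl identifiers. By rule, the text names the 2 identifiers per direction with the largest called difference whose early arrays all lay on 1 side of both 0 h arrays. Alternatives were centring, quantile normalization, a filter on low values, other sources of spread, the replicate letter as a block, and leaving out arrays. The filter on low values kept 11323 genes, and its p-values were adjusted over these alone. Its counts are therefore out of fewer genes than the main ones.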

Additional observations from a re-analysis of the deposited data

How the results depend on the processing

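The direction of each of the 4 identifiers was the same under every alternative in which it was tested (the filter on low values leaves out ENSMUSG00000091302 and ENSMUSG00000087373), and 1 call was lost, that of ENSMUSG00000022346 without the 0 h array B. These identifiers were named for large called differences in the same arrays, so their steady direction is a description. The number of called genes moved more. For XO 6 to 18 h against 0 h it was 514, and 41 to 479 when 1 XO array was left out, 277 with the replicate block (167 higher, 110 lower) and 1269 with the spread of the duplicated arrays, which leaves the change within 6 to 18 h out of the spread. Replicate letters deviated together weakly at most (correlations of A minus B between conditions from -0.13 to 0.19). No pairing was used in the main fits, and what the letters mark is not stated in the labels. For 6 h against 0 h (232) it was 401 among genes above the median value, 32 to 34 without 1 XO 0 h array, 144 with the replicate block and, as an alternative chosen after seeing the data, 26 with the spread of the 14 arrays. The same settings gave 118 to 156 and 36 at 12 h (482), and 324 to 357 and 198 at 18 h (857). For 18 h against 6 h (59) they gave 21 and 0, and the replicate block 32. The XO minus XX difference gave 0 to 4 calls with 1 array left out, the XX 6, 12 and 18 h arrays being left out as a choice made after seeing the data. With 1 array at each early time, signal over background and the spread between cultures are unknown. Under the alternatives, 31 counts stayed within 1.5 times their main value, some of them already given above. For the XO minus XX difference this sets 0 against 0, which cannot show stability. A similar count can also hold other genes. For XO 6 to 18 h against 0 h, the filter on low values called 604 of 11323 genes, with 339 of the 514 among them.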
